A study of Mus musculus with 12 samples.

Results

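The 46 genes described here carry interferon signals into the cell or are switched on by them, and none of them lies in the major histocompatibility complex. They were listed by symbol and kept when present in both deposited expression tables, which share 26382 genes. The list was drawn up because members that answer to interferon gamma were higher in cumulus cells of Sphk1/2gc−/− mice than of WT mice. The genotype difference in cumulus cells therefore chose the genes. Its fits and its counts past a threshold are given as a description and are not a test of these genes. By role the list holds 6 receptor chains and kinases, 7 transcription factors, 14 interferon gamma targets, 14 type I interferon targets and 5 genes of feedback and ADP-ribosylation.

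RNA was sequenced from mural granulosa cells (MGCs, the cells of the follicle wall) and cumulus cells (granulosa cells that surround the oocyte) of mice primed with eCG and collected 2 h post-hCG, with 3 libraries per genotype and cell type and 12 libraries in all. Sphk1/2gc−/− mice lack Sphk1 throughout the body (Sphk1−/−) and carry Sphk2 fl/fl with Fshr-Cre, a transgene that drives Cre in granulosa cells, so that both sphingosine kinases, which make sphingosine-1-phosphate, are targeted in these cells. WT mice were C57/BL6 animals that were purchased, and nothing states that they were littermates of the Sphk1/2gc−/− mice. The methods describe the eCG-primed mice as prepubertal females. The number of animals behind a library is not given in the sources used here, and p-values therefore measure the spread between these libraries, which may be technical.

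Levels are FPKM, fragment counts scaled to exon length and to the size of the library. The libraries held 16100355 to 19761599 reads, as recovered from the steps in the FPKM values. The WT MGC libraries held 1.68, 1.88 and 0.460 FPKM of Sphk1 and the Sphk1/2gc−/− MGC libraries 0.432, 0.557 and 0.104 FPKM. WT cumulus libraries held 0.0911, 0.0699 and 0.0954 FPKM and cumulus libraries labelled Sphk1/2gc−/− 0.0778, 0.456 and 0.557 FPKM, so Sphk1 does not check the labels there, and Sphk2 overlapped between genotypes in both cell types. Markers of granulosa cells (Fshr, Foxl2, Inha, Inhba, Cyp19a1, Nr5a2 and Amh) summed to 8585 to 14518 FPKM in MGCs and 2330 to 3693 FPKM in cumulus cells. Among the MGCs, Sphk1/2gc−/− library 3 stood apart, with correlations of 0.912 to 0.939 to the other MGC libraries across 15279 genes, whereas WT library 3 reached 0.969 and the remaining pairs up to 0.986. WT cumulus library 3 listed 27498 genes above 0, and the other cumulus libraries listed 18765 to 19259.

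Interferons are secreted signals best known from defence against viruses and intracellular microbes. Type I interferons bind the receptor made of Ifnar1 and Ifnar2 and act through a complex of STAT proteins with Irf9, which binds the interferon-stimulated response element (ISRE) of genes such as Ifit1 and Rsad2. Interferon gamma, which is made mainly by T and NK cells, binds Ifngr1 and Ifngr2 and acts through a STAT dimer that binds the gamma-activated site (GAS), and through Irf1, which it induces. Its targets include GTPases of the Gbp and Irg families that attack the vacuoles of intracellular pathogens. Many targets answer to both kinds of interferon, so the division by role is one of emphasis.

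Promoter sequence was not used to choose the genes. RefSeq gave promoter windows (GRCm38.p6, 250 bases before to 50 after a start) for 36 of the 46 genes. GAS was searched as TTCNNNGAA, which is its own reverse complement, and ISRE as GAAA, any 2 bases and GAAA on either strand, so that it can also read TTTC, any 2 bases and TTTC, and neighbouring ISRE matches may overlap. GAS letters were found in 16 of the 36 genes (44.4%) and in 9.55% of all 27025 genes with a window, and ISRE letters were found in 17 (47.2%) against 3.99% of all genes. All 8 interferon gamma targets with a window held an ISRE and 5 held a GAS. Of the 12 type I targets with a window, 6 held an ISRE and 5 a GAS, so both motifs occurred in both groups. The 7 windows that follow are printed 5′ to 3′ on the strand of the gene with GAS and ISRE matches in capitals, because they show the arrangement in 5 genes that were higher in Sphk1/2gc−/− cumulus cells (Igtp, Irgm1, Gbp7, Tgtp1 and Irf1) and in Ifit1 and Rsad2, which were not. The windows lie at chr11:58199306-58199605 (Igtp, plus strand), chr11:48871371-48871670 (Irgm1, minus strand), chr3:142530086-142530385 (Gbp7, plus strand), chr11:48992197-48992496 (Tgtp1, minus strand), chr11:53769764-53770063 (Irf1, plus strand), chr19:34640639-34640938 (Ifit1, plus strand) and chr12:26456403-26456702 (Rsad2, minus strand).
Igtp: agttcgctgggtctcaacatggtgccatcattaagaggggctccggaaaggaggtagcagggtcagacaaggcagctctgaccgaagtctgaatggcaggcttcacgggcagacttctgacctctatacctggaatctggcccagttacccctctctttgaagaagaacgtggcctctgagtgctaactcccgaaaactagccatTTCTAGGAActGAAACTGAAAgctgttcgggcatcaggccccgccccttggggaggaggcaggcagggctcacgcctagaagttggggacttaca
Irgm1: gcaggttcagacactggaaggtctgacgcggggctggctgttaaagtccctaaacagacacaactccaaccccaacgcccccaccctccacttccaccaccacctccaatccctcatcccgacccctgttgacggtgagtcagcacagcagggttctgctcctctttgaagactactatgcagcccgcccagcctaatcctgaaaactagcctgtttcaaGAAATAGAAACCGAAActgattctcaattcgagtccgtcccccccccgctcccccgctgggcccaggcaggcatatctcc
Gbp7: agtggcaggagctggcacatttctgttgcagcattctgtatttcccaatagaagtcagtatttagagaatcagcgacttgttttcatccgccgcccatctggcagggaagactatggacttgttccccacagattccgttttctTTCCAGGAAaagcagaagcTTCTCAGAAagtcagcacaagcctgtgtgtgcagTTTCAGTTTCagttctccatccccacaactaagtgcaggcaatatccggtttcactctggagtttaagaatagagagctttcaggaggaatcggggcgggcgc
Tgtp1: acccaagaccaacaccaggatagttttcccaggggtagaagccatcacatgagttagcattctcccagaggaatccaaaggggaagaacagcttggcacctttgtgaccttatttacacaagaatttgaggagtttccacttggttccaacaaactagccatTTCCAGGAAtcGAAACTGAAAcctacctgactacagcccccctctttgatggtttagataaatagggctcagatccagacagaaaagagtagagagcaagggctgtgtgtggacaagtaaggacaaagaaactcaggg
Irf1: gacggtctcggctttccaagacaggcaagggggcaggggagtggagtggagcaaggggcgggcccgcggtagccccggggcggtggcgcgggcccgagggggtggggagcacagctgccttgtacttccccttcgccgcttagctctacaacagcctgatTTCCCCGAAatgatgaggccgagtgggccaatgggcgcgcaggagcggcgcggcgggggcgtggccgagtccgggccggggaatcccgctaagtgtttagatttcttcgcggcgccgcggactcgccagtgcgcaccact
Ifit1: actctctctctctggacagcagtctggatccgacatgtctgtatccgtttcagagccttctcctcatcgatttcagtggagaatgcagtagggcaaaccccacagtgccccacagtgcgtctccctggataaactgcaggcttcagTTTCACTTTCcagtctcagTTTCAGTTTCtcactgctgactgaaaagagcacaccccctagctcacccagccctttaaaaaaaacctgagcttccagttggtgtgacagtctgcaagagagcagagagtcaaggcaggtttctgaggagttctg
Rsad2: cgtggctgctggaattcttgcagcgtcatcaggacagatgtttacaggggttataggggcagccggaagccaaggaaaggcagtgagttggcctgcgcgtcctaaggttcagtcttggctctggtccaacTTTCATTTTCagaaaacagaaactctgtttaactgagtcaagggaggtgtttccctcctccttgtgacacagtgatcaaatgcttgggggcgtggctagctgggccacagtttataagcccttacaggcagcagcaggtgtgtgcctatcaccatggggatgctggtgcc

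In Igtp a GAS began 45 bases before the start and an ISRE followed 34 bases before it. Irgm2 (−75 and −64) and Tgtp1 (−88 and −77) held the same order at the same distance of their first bases. Irgm1 held ISRE letters alone, at −30 and −24, and Irf1 a GAS alone, at −90. Ifit1 held a pair of ISREs at −104 and −85 with no GAS in this window, and Rsad2 a single ISRE at −120. The printed windows are examples. Gbp2, Gbp3 and Socs1 were also higher in Sphk1/2gc−/− cumulus cells and held ISREs only, and Oasl2, Jak2 and Irf9 were higher and held neither motif. The type I targets Ifi35, Ifit2 and Isg20 held a GAS only. A match of letters is a description of the window, and no binding was measured.

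**Figure D1:**
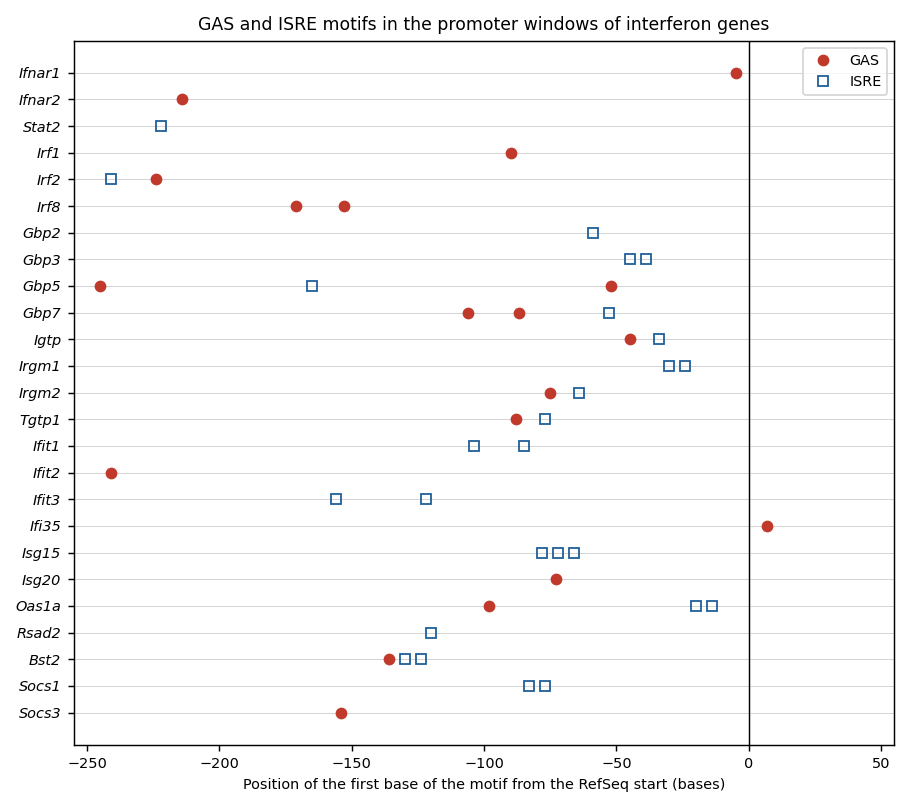
Position of the first base of each GAS (filled circles) and ISRE (open squares) match in the promoter windows of the interferon genes that held any, in bases from the RefSeq start, with 1 gene per line. The GAS and ISRE of Igtp, Irgm2 and Tgtp1 sit side by side within 100 bases of the start. Ifit1, Ifit3, Isg15 and Rsad2 hold ISREs only, as do Gbp2, Gbp3, Irgm1, Socs1 and Stat2.

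In cumulus cells many interferon gamma targets and feedback genes were higher in Sphk1/2gc−/− than in WT mice, while type I targets were mixed and the receptors and kinases held 1 gene that was higher and 1 that was lower. Of the 46 genes, 32 reached a mean of 0.5 FPKM in a genotype and were fitted with limma on log2(FPKM + 1), and 14 were below that limit. Tgtp1, Irgm2, Isg20, Oas1a, Socs3 and Parp14 reached the limit in Sphk1/2gc−/− cumulus cells alone, so their rise admitted them to the fit. Rsad2 reached it in WT alone. Of the 32 genes, 15 were higher and 2 lower in Sphk1/2gc−/− cumulus cells at an adjusted p of 0.05 or less, beside 9.66% higher and 12.7% lower of all 12205 genes fitted. With a fold change of 2 or more as well, the counts were 13 higher and 1 lower, beside 4.19% and 3.85% of all genes. The median log2 difference was 0.63 over the 32 genes and −0.06 over all genes fitted. Without WT library 3, in which more genes were listed above 0, 13 were higher and 1 lower, and without library 3 of both genotypes 10 were higher and 1 lower. Shares of all genes in these settings are not given here. Jak1, Irf9, Oas1a and Socs1 lay close to the threshold, and each of them missed it in 5 of the 6 fits that left out a single library. As these differences chose the list, the counts describe it and support nothing.

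The cell-autonomous GTPases carried the largest differences in cumulus cells. Igtp, a regulatory member of the Irg family, measured 2.95, 2.56 and 2.59 FPKM in WT libraries 1 to 3, and the corresponding Sphk1/2gc−/− values were 33.7, 27.6 and 31.0 FPKM. Its mean was 11.4-fold higher in Sphk1/2gc−/− cumulus cells (2.70 ± 0.217 against 30.7 ± 3.05 FPKM, mean ± SD, n = 3), a log2 difference of 3.10 (SE 0.145). Gbp7, a guanylate-binding GTPase, measured 1.75, 1.17 and 1.45 FPKM in WT but 27.2, 20.3 and 17.6 FPKM in Sphk1/2gc−/− cumulus cells, which is 14.9-fold higher in the mean with a log2 difference of 3.19 (SE 0.191). In both genes every Sphk1/2gc−/− library lay above every WT library by several times the spread within a genotype. Irgm1, another regulatory Irg protein, measured 2.02, 2.28 and 2.36 FPKM in WT against 10.6, 11.0 and 11.0 FPKM in Sphk1/2gc−/− libraries, with little spread in either genotype. Iigp1, an effector Irg GTPase, went from 4.12, 0.856 and 2.46 FPKM to 17.4, 20.8 and 12.6 FPKM, and WT library 2 was the lowest of the 6. Tgtp1, a further effector, was near the limit of detection in WT, where 0.174, 0.0868 and 0.0711 FPKM stood for 9, 5 and 4 reads, but reached 2.70, 2.43 and 2.57 FPKM or 163, 154 and 158 reads in Sphk1/2gc−/− cumulus cells. Reads of Tgtp1 can be split with its close copy Tgtp2, and the families of Gbp, Irg, Ifit and Oas genes share similar sequence, so the value of a single family member is less certain than the presence of its family.

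The Gbp genes lie in clusters, and those higher at an adjusted p of 0.05 or less in cumulus cells all came from the cluster on chromosome 3. Gbp5 and all chromosome 5 genes but Gbp8 were below the limit of the fit, so the fit does not compare the clusters. From few reads, Gbp4, Gbp6 and, by a small margin, Gbp9 were higher in every Sphk1/2gc−/− cumulus library than in every WT one. The genes of chromosome 3 (142493978 to 142638008) included Gbp7, Gbp2 and Gbp3, which were higher, and Gbp5. Gbp2 measured 2.76, 1.22 and 1.45 FPKM in WT against 7.07, 5.31 and 6.18 FPKM in Sphk1/2gc−/− libraries, a log2 difference of 1.39 (SE 0.219). Gbp3 measured 1.08, 0.647 and 1.05 FPKM in WT against 5.02, 4.59 and 4.28 FPKM in Sphk1/2gc−/− libraries. Gbp5 stayed at or below 0.197 FPKM in all 6 cumulus libraries. The genes of chromosome 5 (105014150 to 105293698), which are Gbp4, Gbp6, Gbp8, Gbp9 and Gbp10, were low in both genotypes, and none exceeded 1.54 FPKM. Gbp8 reached the highest value among them, at 0.758, 0.614 and 0.364 FPKM in WT against 1.54, 0.573 and 0.288 FPKM in Sphk1/2gc−/− libraries, and the genotypes overlapped. Gbp6 was at 0.0939, 0.0187 and 0.0669 FPKM (9, 2 and 7 reads) in WT and at 0.232, 0.238 and 0.228 FPKM (26, 28 and 26 reads) in Sphk1/2gc−/− cumulus cells. Gbp4 was at 0.0663, 0 and 0.0760 FPKM against 0.191, 0.108 and 0.153 FPKM, and Gbp9 at 0.0600, 0.0108 and 0.0550 FPKM against 0.0616, 0.0978 and 0.0605 FPKM. Gbp10 had at most 2 reads in any cumulus library. Exons of Gbp4, Gbp8 and Gbp9 overlap by 60 or 61 bases, and those of Gbp6 and Gbp10 overlap the gene model Gm43302 by 1726 and 1792 bases. Irgm2, whose exons overlap those of Igtp by 162 bases, measured 0.219, 0.181 and 0.293 FPKM in WT against 0.590, 0.590 and 0.721 FPKM in Sphk1/2gc−/− cumulus cells, so its level remained far below that of Igtp in both genotypes. In all, 9 interferon gamma targets were fitted in cumulus cells, 7 of them were higher at an adjusted p of 0.05 or less, and their median log2 difference was 1.68.

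**Figure D2:**
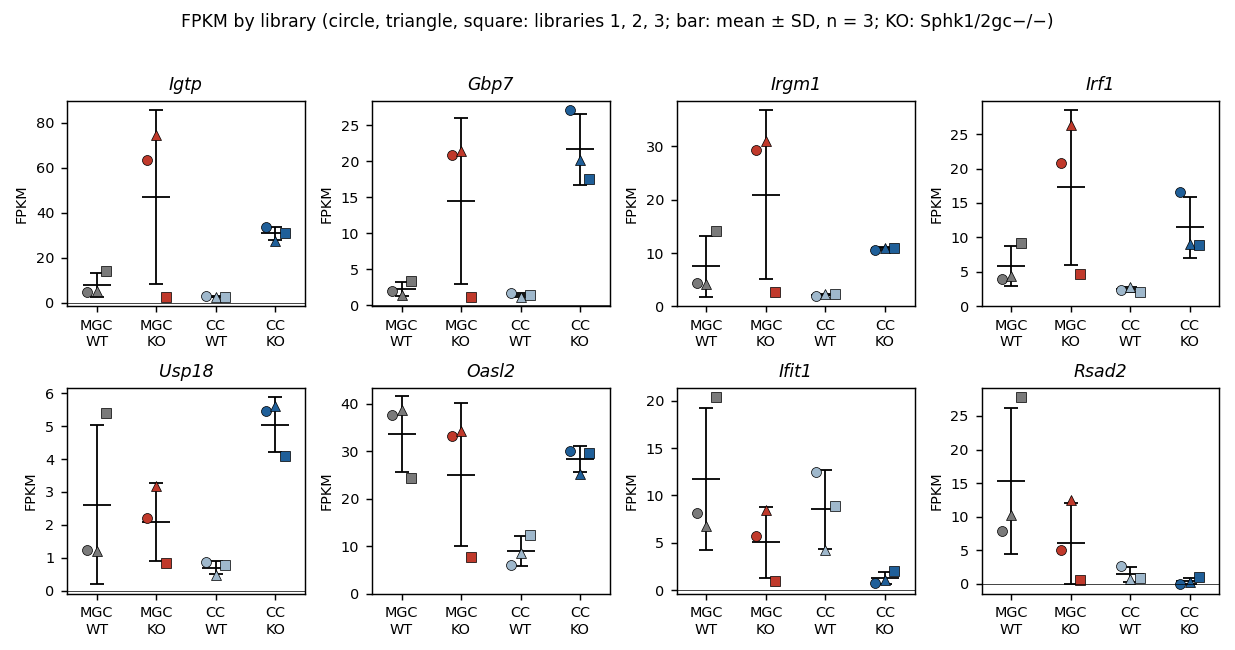
FPKM of 8 interferon genes in each library of MGCs and cumulus cells (CC) from WT and Sphk1/2gc−/− (KO) mice, on linear axes, with symbols for libraries 1 to 3 and bars for the mean ± SD (n = 3). In cumulus cells Igtp, Gbp7, Irgm1, Irf1, Usp18 and Oasl2 are higher in all 3 Sphk1/2gc−/− libraries and Ifit1 is lower, and in MGCs the Sphk1/2gc−/− library 3 lies far below libraries 1 and 2 for Igtp, Gbp7, Irgm1 and Irf1.

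Type I interferon targets did not move together in cumulus cells. Of 9 that were fitted, 2 were higher and 1 was lower at an adjusted p of 0.05 or less, and their median log2 difference was 0.44. Oasl2, an oligoadenylate synthetase-like protein, measured 6.06, 8.59 and 12.4 FPKM in WT against 30.0, 25.2 and 29.7 FPKM in Sphk1/2gc−/− cumulus cells, a log2 difference of 1.60 (SE 0.233). Oas1a, a synthetase of oligoadenylate, was at 0.0988, 0.177 and 0.0302 FPKM (3, 6 and 1 reads) against 0.479, 0.671 and 0.996 FPKM (17, 25 and 36 reads). For these genes the genotypes did not overlap. Ifit1, which binds foreign RNA, went the other way, with 12.5, 4.21 and 8.92 FPKM in WT against 0.800, 1.05 and 2.06 FPKM in Sphk1/2gc−/− libraries, a mean 6.55-fold lower and a log2 difference of −1.98 (SE 0.348). Its relative Ifit3 was at 2.67, 0.606 and 2.22 FPKM and 0.0609, 0.174 and 1.46 FPKM, and Sphk1/2gc−/− library 3 lay within the WT range. Ifit2 was at 0.617, 0.227 and 0.391 FPKM and 0.216, 0 and 0.226 FPKM, below the limit for the fit. Rsad2, an antiviral enzyme also called viperin, measured 2.72, 0.757 and 0.867 FPKM in WT against 0.0245, 0.315 and 0.998 FPKM in Sphk1/2gc−/− libraries, and the groups overlapped. Ifit1, Ifit3 and Rsad2 had their highest cumulus value in WT library 1.

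Among the other type I targets of cumulus cells, Bst2 (tetherin, which holds budding viruses at the cell surface) had the highest level of all 46 genes. It measured 176, 199 and 284 FPKM in WT against 270.2, 410.1 and 396 FPKM in Sphk1/2gc−/− libraries, and WT library 3 lay above Sphk1/2gc−/− library 1. Isg20, an exonuclease, was at 0.200, 0.329 and 0.520 FPKM and 0.571, 1.50 and 1.77 FPKM, without overlap. Xaf1, which binds the apoptosis inhibitor XIAP, was at 2.04, 0.890 and 1.53 FPKM and 2.06, 2.62 and 2.30 FPKM, again without overlap. Neither of these genes, nor Bst2, reached an adjusted p of 0.05 or less. Ifi35, an interferon-induced protein with a leucine zipper, was at 14.5, 11.0 and 11.8 FPKM and 10.7, 13.2 and 12.7 FPKM, with a log2 difference of −0.02 (SE 0.162) that turned to 0.03 and 0.06 under median scaling and quantile normalization. Isg15, a ubiquitin-like modifier, had 1, 0 and 1 reads in WT and 0 reads in each Sphk1/2gc−/− cumulus library. The dynamin-like GTPases were low too, with Mx1 at 0.102, 0 and 0.0937 FPKM and 0, 0 and 0.0429 FPKM and Mx2 at 0.619, 0.308 and 0.284 FPKM and 0.0735, 0.0280 and 0.130 FPKM. Ifi44 was the only member that passed neither the level nor the fold set for values by library, and it ranged from 0.109 to 0.476 FPKM in cumulus cells and from 0.0993 to 1.34 FPKM in MGCs.

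Of the 6 receptors and kinases of cumulus cells, 1 was higher and 1 lower, and both were kinases. Jak2, the kinase bound to the interferon gamma receptor and to many cytokine receptors, was higher, with 3.80, 3.46 and 3.57 FPKM in WT against 6.41, 8.15 and 11.0 FPKM in Sphk1/2gc−/− libraries (log2 difference 1.02, SE 0.191). Jak1, which works beside Jak2 at the interferon gamma receptor and also serves the type I receptor, was lower. It was at 101, 78.8 and 87.1 FPKM against 50.0, 57.7 and 61.3 FPKM (log2 difference −0.65, SE 0.159). Neither kinase overlapped between genotypes. Ifngr1, the ligand-binding chain of the interferon gamma receptor, was at 23.6, 26.5 and 29.5 FPKM and 24.3, 15.4 and 16.2 FPKM, and Ifngr2, its signalling chain, at 9.90, 10.5 and 16.0 FPKM and 12.4, 8.68 and 11.3 FPKM. The type I receptor chains were at 2.99, 2.92 and 3.51 FPKM and 2.42, 2.01 and 3.02 FPKM for Ifnar1 and at 2.61, 2.72 and 2.80 FPKM and 2.95, 2.92 and 2.90 FPKM for Ifnar2. Of the 4 receptor chains, none passed at an adjusted p of 0.05 or less, and Ifnar2 alone was without overlap.

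Of the 3 transcription factors that were fitted in cumulus cells, Irf1 had the largest log2 difference. Irf1, which interferon gamma induces and which activates many of its targets, measured 2.39, 2.87 and 2.13 FPKM in WT against 16.6, 9.00 and 8.86 FPKM in Sphk1/2gc−/− libraries, 4.67-fold higher in the mean (log2 difference 1.80, SE 0.239). Irf9, the DNA-binding part of the type I complex, was at 5.20, 6.53 and 6.04 FPKM and 12.3, 7.95 and 9.22 FPKM. These were the factors higher at an adjusted p of 0.05 or less, which Irf9 missed with most single libraries left out. Irf3, which switches on type I interferon genes, was at 3.25, 5.58 and 5.96 FPKM and 5.35, 7.17 and 5.77 FPKM, with overlap. The remaining factors were under 0.5 FPKM in every cumulus library. Irf8, a factor of myeloid cells, was at 0.0264, 0.0394 and 0.0323 FPKM (3, 5 and 4 reads) in WT and 0.181, 0.344 and 0.236 FPKM (24, 48 and 32 reads) in Sphk1/2gc−/− libraries, a 7.76-fold higher mean from few reads. Stat2, a part of the type I complex, was at 0.388, 0.329 and 0.269 FPKM and 0.224, 0.256 and 0.273 FPKM. Irf2, a repressor that competes with Irf1, was at 0.328, 0.256 and 0.323 FPKM and 0.136, 0.253 and 0.141 FPKM, and Irf7, the amplifier of type I interferon, at 0.0658, 0.206 and 0.271 FPKM and 0.225, 0.322 and 0.318 FPKM. Among these 4 low factors Irf8 was higher and Irf2 lower without overlap, and Stat2 and Irf7 overlapped between genotypes.

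Of the 5 feedback and ADP-ribosylation genes, 3 were higher in Sphk1/2gc−/− cumulus cells at an adjusted p of 0.05 or less. Usp18, which removes Isg15 from proteins and blocks the type I receptor, measured 0.868, 0.479 and 0.775 FPKM in WT against 5.44, 5.60 and 4.09 FPKM in Sphk1/2gc−/− libraries, 7.13-fold higher in the mean (log2 difference 1.82, SE 0.168). Socs3, an inhibitor of JAK kinases that is induced above all by cytokines of the interleukin 6 family, was at 0.129, 0.423 and 0.177 FPKM and 1.85, 3.41 and 4.87 FPKM. Socs1, the main inhibitor of interferon gamma signalling, was at 0.916, 1.46 and 1.77 FPKM and 1.96, 5.31 and 6.45 FPKM. These were the 3 that passed, and Socs1 missed the threshold with most single libraries left out. Parp14, an ADP-ribosyltransferase, was at 0.307, 0.251 and 0.330 FPKM and 0.593, 0.685 and 1.10 FPKM. Dtx3l, a ubiquitin ligase whose exons overlap those of its partner Parp9 by 458 bases, was at 1.49, 1.32 and 1.02 FPKM and 1.98, 1.75 and 1.79 FPKM. None of the 5 genes overlapped between genotypes. Over all roles, 21 of the 32 genes were higher and 2 lower without overlap of the genotypes in cumulus cells, beside 18.2% and 24.1% of all genes. The 21 include the genes that reached the limit of the fit in Sphk1/2gc−/− cumulus cells alone.

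Leukocyte transcripts were measured beside these values, since a bulk library cannot tell fewer cells of a type from less RNA per cell. Markers of T and NK cells summed to 0.376 to 0.746 FPKM in WT and 0.339 to 0.531 FPKM in Sphk1/2gc−/− cumulus cells, over the 9 of 11 listed markers in the cumulus table. These sums hide opposite directions. Klrb1c made up most of each WT sum, at 0.608, 0.376 and 0.327 FPKM against 0.233, 0.137 and 0.0704 FPKM in Sphk1/2gc−/− libraries. Nkg7 was at 0 in each WT library against 0.116, 0.111 and 0.0570 FPKM. Each was without overlap, and the other markers overlapped between genotypes or were at 0. Cd3d was at 0 in all 6 cumulus libraries, and Cd3e and Cd4 were above 0 in WT library 3 alone. Ifng itself, named here after its values were seen, had 0 reads in each of the 6 cumulus libraries, where a floor of 3 reads limits what could be seen. Ptprc, Coro1a and Laptm5, which mark all leukocytes, summed to 0.0461 to 0.277 FPKM in WT and 0.0992 to 0.378 FPKM in Sphk1/2gc−/− cumulus cells. The 10 macrophage markers summed to 38.1, 2.36 and 9.92 FPKM in WT libraries 1 to 3 and to 52.9, 8.95 and 68.2 FPKM in Sphk1/2gc−/− libraries 1 to 3, and Lyz2 made up the larger part of the sum in each library but WT library 2. The sums overlapped, but 3 of the 10 markers, C1qa, C1qb and C1qc, were higher in every Sphk1/2gc−/− cumulus library than in every WT one. C1qb, a chain of complement C1q that macrophages make, was at 1.37, 0.153 and 0.628 FPKM in WT against 8.30, 1.58 and 9.87 FPKM in Sphk1/2gc−/− libraries. Neutrophil markers went the other way, with sums of 19.3, 2.94 and 2.99 FPKM in WT against 0.153, 0.535 and 0.150 FPKM in Sphk1/2gc−/− libraries. The summed interferon gamma targets went from 16.3, 9.68 and 12.3 FPKM to 106, 93.6 and 86.8 FPKM in the same libraries. Cumulus markers (Ptx3, Has2, Tnfaip6 and Npr2) summed to 263 to 596 FPKM in WT and to 1020 to 1238 FPKM in Sphk1/2gc−/− cumulus cells. Ptx3 and Tnfaip6 were higher in every Sphk1/2gc−/− library than in every WT one, whereas Has2 and Npr2 overlapped between genotypes. By quantitative RT-PCR at a later time after hCG, the paper reports lower mRNA of cumulus expansion genes in the knockout mice. Of the 7 granulosa markers, 5 were lower in every Sphk1/2gc−/− cumulus library than in every WT one. The part of these differences in the cumulus values was not tested.

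**Figure D3:**
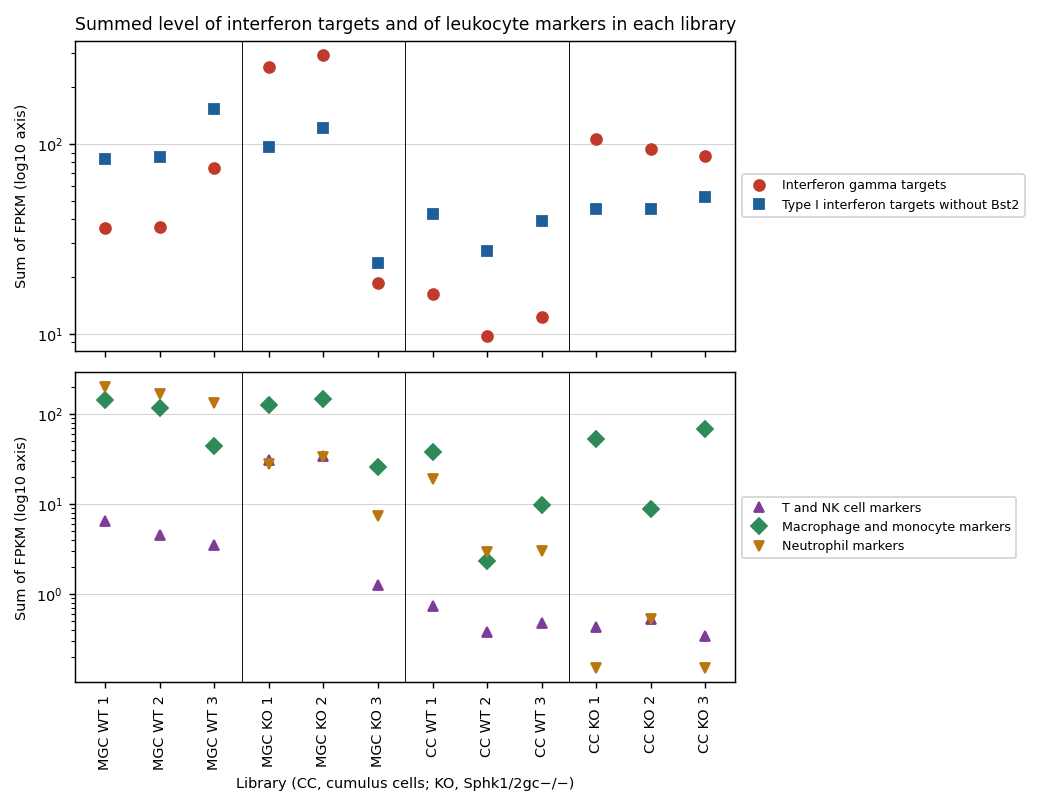
Summed FPKM on log10 axes for each library, with the 14 interferon gamma targets and 13 type I targets (all but Bst2) above and marker lists of T and NK cells, macrophages and neutrophils below. In cumulus cells (CC) the interferon gamma targets are higher in every Sphk1/2gc−/− (KO) library while T and NK markers stay under 1 FPKM, and in Sphk1/2gc−/− MGCs both are high in libraries 1 and 2 and low in library 3.

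The stated reason for the list lies in cumulus cells, so the genotype difference in MGCs was tested, but the list was drawn up with earlier results of both cell types known and is not independent of them. In MGCs 45 of the 46 genes were fitted, and 0 were higher or lower in Sphk1/2gc−/− MGCs at an adjusted p of 0.05 or less (limma with Benjamini-Hochberg adjustment over 15279 genes), where 0.00654% of all genes were higher and 0.0327% lower. At an unadjusted p of 0.05 or less, 3 were higher (Gbp8, Oas1a and Bst2) and 0 lower, and voom on recovered reads also gave 0 after adjustment and 3 before. The share of all genes at the unadjusted threshold is not given here, so these unadjusted counts cannot be set against it. Gbp6 and Gbp8 reached the limit of the fit in Sphk1/2gc−/− MGCs alone. The log2 difference was positive for all 13 interferon gamma targets fitted, with a median of 0.86 beside a median of −0.0034 over all genes, and it was negative for 8 of 14 type I targets, with a median of −0.18. Without overlap of the genotypes, 1 gene was higher (Oas1a) and 0 were lower, beside 7.72% and 9.17% of all genes.

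The third library of each genotype differed from its fellows. Igtp measured 4.80, 5.10 and 14.1 FPKM in WT libraries 1 to 3 but 63.5, 74.6 and 2.54 FPKM in the corresponding Sphk1/2gc−/− MGC libraries, a log2 difference of 1.67 (SE 1.15, limma adjusted p = 0.711). Iigp1 was at 4.04, 4.35 and 7.71 FPKM and 48.3, 53.4 and 2.07 FPKM (limma adjusted p = 0.680). In both genes Sphk1/2gc−/− libraries 1 and 2 lay far above every WT library and library 3 below every one. Irgm1 was at 4.35, 4.12 and 14.2 FPKM and 29.3, 31.0 and 2.65 FPKM, Irgm2 at 3.17, 3.28 and 9.47 FPKM and 20.5, 22.8 and 1.57 FPKM, and Tgtp1 at 1.10, 0.837 and 0.574 FPKM and 2.74, 2.97 and 0.224 FPKM. The same pattern held for the Gbp genes of chromosome 3, with Gbp7 at 2.01, 1.39 and 3.38 FPKM and 20.9, 21.4 and 1.18 FPKM (limma adjusted p = 0.614). Gbp2 was at 10.3, 11.0 and 13.2 FPKM and 43.3, 53.9 and 3.74 FPKM, and Gbp3 at 2.51, 2.98 and 6.83 FPKM and 16.1, 19.1 and 2.10 FPKM. Gbp5 was at 1.19, 1.41 and 2.48 FPKM and 2.19, 3.32 and 0.600 FPKM, and here WT library 3 lay above Sphk1/2gc−/− library 1. Of the chromosome 5 genes, Gbp4 was at 0.599, 0.700 and 0.554 FPKM and 2.16, 3.27 and 0.428 FPKM and Gbp9 at 1.23, 0.876 and 1.23 FPKM and 2.17, 3.20 and 0.930 FPKM. Gbp6 was at 0.265, 0.330 and 0.398 FPKM and 1.95, 2.69 and 0.232 FPKM, and Gbp8 at 0.229, 0.0519 and 0.103 FPKM and 1.18, 1.65 and 0.177 FPKM (log2 difference 0.75, SE 0.306, limma adjusted p = 0.520). Gbp10, below the limit of the fit, had 2, 3 and 2 reads in WT and 33, 62 and 1 reads in Sphk1/2gc−/− MGCs. For all 14 interferon gamma targets Sphk1/2gc−/− library 2 was thus higher than library 3 of that genotype.

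Many type I targets of MGCs were highest in WT library 3. Rsad2 measured 7.85, 10.3 and 27.8 FPKM in WT MGCs against 5.06, 12.4 and 0.574 FPKM in Sphk1/2gc−/− ones (log2 difference −1.49, SE 0.804, limma adjusted p = 0.625), and Ifit1 was at 8.10, 6.73 and 20.4 FPKM and 5.73, 8.45 and 1.00 FPKM (limma adjusted p = 0.623). Ifit3 was at 3.47, 3.93 and 10.9 FPKM and 5.04, 8.63 and 0.983 FPKM, Ifit2 at 1.14, 1.11 and 2.75 FPKM and 1.59, 2.69 and 0.789 FPKM, and Isg15 at 13.4, 12.6 and 33.5 FPKM and 23.8, 25.4 and 4.39 FPKM. In these 5 genes WT library 3 was the highest of the 6 and Sphk1/2gc−/− library 3 the lowest. Mx2 reached 1.41, 2.04 and 11.9 FPKM in WT MGCs against 1.11, 2.14 and 0.857 FPKM in Sphk1/2gc−/− MGCs, and Mx1 1.15, 1.88 and 2.88 FPKM and 0.825, 2.17 and 0.167 FPKM. Xaf1 was at 1.38, 1.11 and 5.41 FPKM and 3.72, 4.23 and 0.885 FPKM, and Ifi35 at 2.42, 2.07 and 6.08 FPKM and 4.58, 6.05 and 2.79 FPKM. Oasl2, by contrast, was lowest in the third library of either genotype, at 37.7, 38.8 and 24.5 FPKM and 33.1, 34.4 and 7.67 FPKM. Isg20 was at 2.22, 2.50 and 3.38 FPKM and 3.62, 3.75 and 1.07 FPKM. Oas1a was the member without overlap, at 2.03, 1.96 and 2.39 FPKM in WT MGCs against 6.98, 8.99 and 2.44 FPKM in Sphk1/2gc−/− MGCs (log2 difference 1.06, SE 0.385, limma adjusted p = 0.484). Bst2 was at 150.1, 158 and 247 FPKM and 339, 344 and 211 FPKM (limma adjusted p = 0.513).

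**Figure D4:**
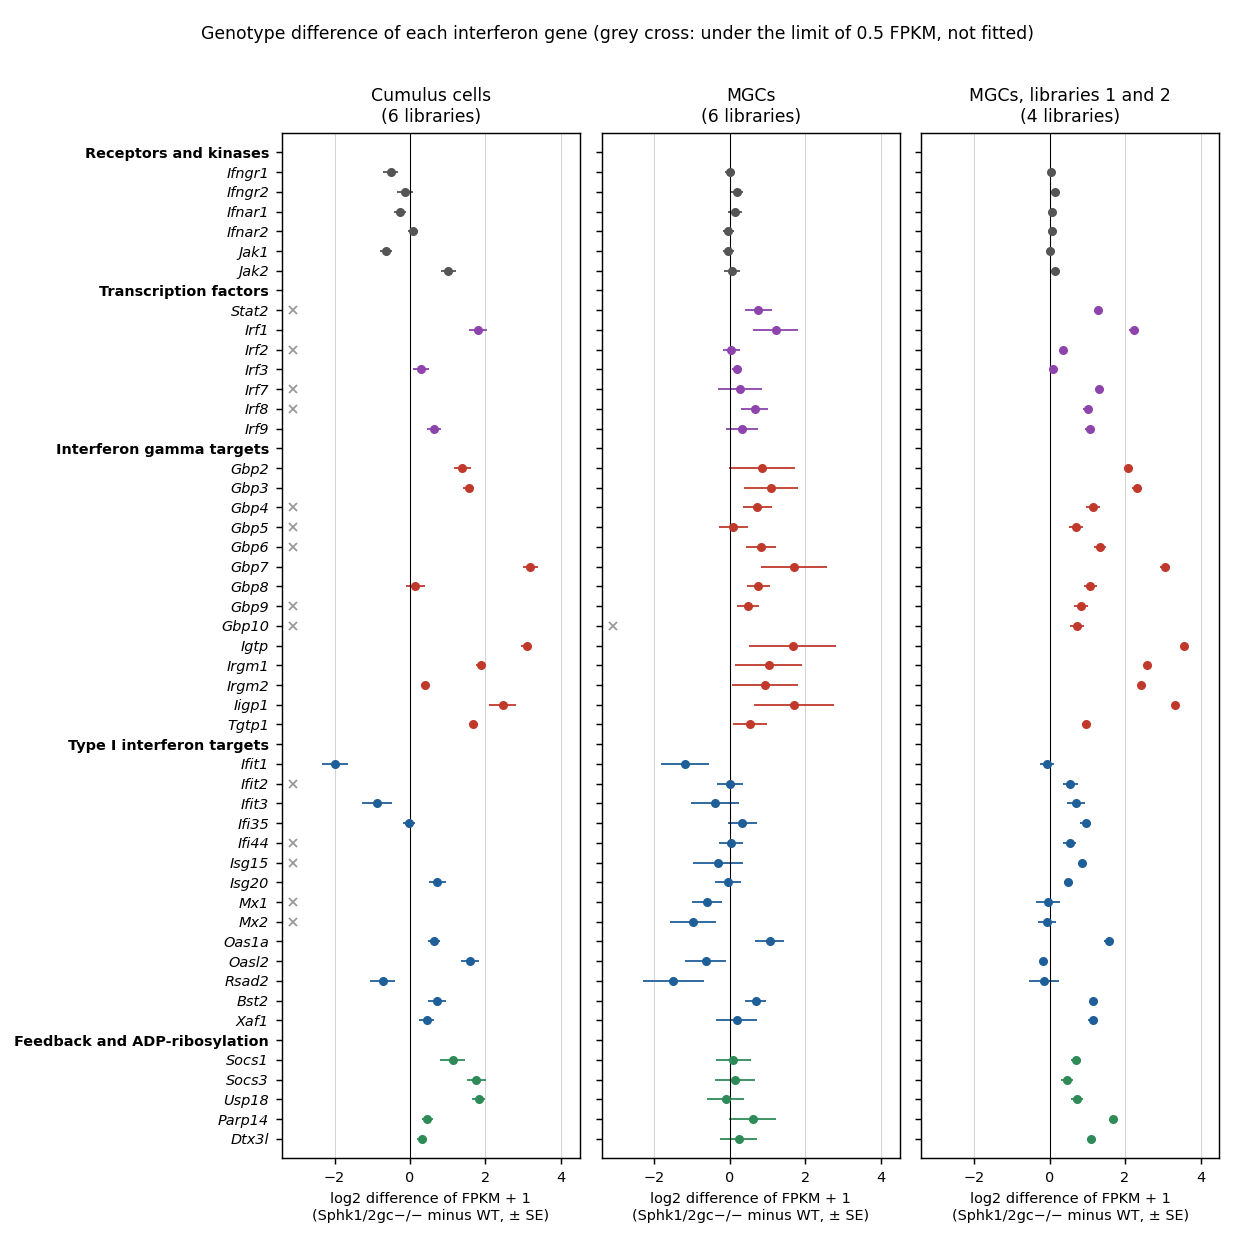
Log2 difference of FPKM + 1 between Sphk1/2gc−/− and WT with its standard error for each interferon gene, grouped by role, in cumulus cells, in all 6 MGC libraries and in MGC libraries 1 and 2 of each genotype. Interferon gamma targets lie right of 0 in all 3 panels, their error bars are wide over the 6 MGC libraries and short without library 3, and Ifit1 and Rsad2 lie left of 0 in the first and second panels.

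Transcription factors and feedback genes of MGCs gave no call either. Irf1 measured 3.93, 4.45 and 9.19 FPKM in WT MGCs against 20.9, 26.3 and 4.70 FPKM in Sphk1/2gc−/− ones (log2 difference 1.21, SE 0.605, limma adjusted p = 0.600), and Irf8 was at 0.705, 0.549 and 0.387 FPKM and 2.41, 2.13 and 0.369 FPKM. Stat2 was at 4.36, 4.04 and 11.5 FPKM and 11.1, 12.3 and 9.20 FPKM, Irf7 at 5.12, 4.97 and 21.3 FPKM and 13.8, 14.1 and 5.29 FPKM, and Irf9 at 6.07, 6.15 and 13.8 FPKM and 12.2, 15.6 and 5.57 FPKM. WT library 3 exceeded both other WT libraries in Irf1, Stat2, Irf7 and Irf9 and the genotypes overlapped. Irf2 was at 3.74, 3.72 and 5.79 FPKM and 5.39, 4.77 and 3.51 FPKM, and Irf3 at 13.5, 14.9 and 13.7 FPKM and 14.8, 15.2 and 18.2 FPKM. Socs1 was at 8.20, 9.67 and 9.77 FPKM and 17.0, 13.6 and 3.85 FPKM, Socs3 at 11.5, 14.7 and 6.61 FPKM and 16.3, 20.3 and 4.48 FPKM, and Usp18 at 1.24, 1.20 and 5.40 FPKM and 2.20, 3.20 and 0.853 FPKM. Parp14 was at 2.41, 2.65 and 6.61 FPKM and 10.2, 10.6 and 1.59 FPKM, and Dtx3l at 2.91, 2.89 and 7.70 FPKM and 6.73, 7.95 and 2.13 FPKM. In each of these 5 genes Sphk1/2gc−/− library 3 was the lowest of the 6.

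Receptors and kinases were steady across the MGC libraries. Ifngr1 measured 10.8, 11.2 and 12.5 FPKM in WT MGCs against 10.6, 12.2 and 12.0 FPKM in Sphk1/2gc−/− ones, with a log2 difference of 0.01 (SE 0.129), and Ifngr2 was at 17.9, 17.1 and 19.4 FPKM and 17.2, 21.5 and 24.7 FPKM. Ifnar1 was at 15.9, 15.9 and 19.6 FPKM and 15.6, 17.8 and 24.4 FPKM, and Ifnar2 at 7.81, 7.38 and 8.27 FPKM and 7.41, 8.57 and 6.83 FPKM. Jak1 was at 109.9, 105 and 135 FPKM and 112, 105 and 122 FPKM, and Jak2 at 9.52, 10.7 and 7.83 FPKM and 9.89, 12.7 and 7.20 FPKM. The 6 log2 differences lay between −0.04 and 0.20, and none passed. The difference between cell types in the effect of genotype was not tested, because one side of it chose the genes.

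Sphk1/2gc−/− library 3 was the lowest of the 6 MGC libraries for 32 of the 45 genes fitted, beside 19.6% of all genes. Sphk1/2gc−/− library 2 was the highest for 25 (9.11% of all genes), including all 13 interferon gamma targets fitted, and WT library 3 for 14 (8.87% of all genes), of which 9 were type I targets. With Sphk1/2gc−/− library 3 left out, 10 genes were higher in Sphk1/2gc−/− MGCs and 0 lower (1.1% and 0.73% of all 15215 genes). They were 8 interferon gamma targets, Irf8 and Oas1a, with Igtp at a log2 difference of 3.11 (SE 0.435, limma adjusted p = 0.0394), Gbp7 at 2.81 (SE 0.256, limma adjusted p = 0.0119) and Oas1a at 1.52 (SE 0.142, limma adjusted p = 0.0135). With library 3 of both genotypes left out, 26 genes were higher and 0 lower (5.07% and 11.0% of all 15433 genes). The 26 comprised 12 of 14 interferon gamma targets, 6 of 14 type I targets, 5 of 7 transcription factors, 3 of 5 feedback genes and 0 of 6 receptors and kinases. In both settings the interferon gamma targets counted include Gbp6 and Gbp8. They reached the limit of the fit in Sphk1/2gc−/− MGCs alone, so their rise admitted them. Gbp10 was admitted in the same way and did not pass. Over those 4 libraries the log2 difference was 3.55 for Igtp (SE 0.0967, limma adjusted p = 6.57e-04), 2.24 for Irf1 (SE 0.132, limma adjusted p = 0.00403) and −0.07 for Ifit1 (SE 0.191, limma adjusted p = 0.808). Both choices were made after the values had been seen, and no source used here gives a reason to leave a library out.

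In the Sphk1/2gc−/− MGC libraries, markers of T and NK cells and the interferon gamma targets were both high in libraries 1 and 2 and low in library 3, whereas in WT library 3 was the lowest for these markers and the highest for the targets. The markers summed to 6.43, 4.58 and 3.51 FPKM in WT libraries 1 to 3 and to 31.4, 34.5 and 1.28 FPKM in Sphk1/2gc−/− libraries 1 to 3, while the 14 interferon gamma targets summed to 35.9, 36.5 and 74.2 FPKM and to 254.8, 294 and 18.5 FPKM. Of the 11 markers, 9 were higher in Sphk1/2gc−/− libraries 1 and 2 than in every WT library, and Klrb1c and Ncr1 were not. Gzmb, a granule protease of cytotoxic cells, led the list at 3.46, 1.74 and 2.60 FPKM in WT MGCs against 14.7, 16.4 and 0.270 FPKM in Sphk1/2gc−/− ones. Ifng had 0, 1 and 0 reads in WT and 2, 3 and 0 reads in Sphk1/2gc−/− MGCs, at or below the floor of 3 reads. Macrophage markers summed to 44.5 to 142.9 FPKM in WT and 26.1 to 148 FPKM in Sphk1/2gc−/− MGCs, and neutrophil markers to 133.6 to 203 FPKM in WT and 7.34 to 33.3 FPKM in Sphk1/2gc−/− MGCs. Of the macrophage markers, C1qa, C1qb, C1qc, Adgre1, Aif1 and, narrowly, Csf1r were higher in Sphk1/2gc−/− libraries 1 and 2 than in every WT library. Lyz2, Cd68, Mrc1 and Itgam were not. C1qa was at 10.5, 9.63 and 3.88 FPKM in WT against 25.6, 29.4 and 5.16 FPKM. Aif1 alone was without overlap. The part of these cells in the MGC values was not tested.

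WT MGCs were set against WT cumulus cells to place the levels of the genes in the follicle. The fit shares its 3 WT cumulus libraries with the difference that chose the genes, and FPKM was scaled within each library and tabled separately by cell type. The median of all 15339 genes was already 0.58 higher on the log2 scale in MGCs. Of 44 genes fitted, 34 were higher in MGCs and 3 lower at an adjusted p of 0.05 or less, beside 55.5% and 26.3% of all genes. With the medians of the libraries set equal, 20 were higher and 4 lower, beside 36.1% and 37.7% of all genes. Stat2, Irf2, Irf7, Irf8, Gbp4, Gbp5, Gbp9, Irgm2 and Tgtp1 reached the limit of the fit in MGCs alone. So did Ifit2, Ifi44, Isg15, Isg20, Mx1, Mx2, Oas1a, Socs3 and Parp14, so their level in MGCs admitted all of these genes. Gbp8, which was lower in MGCs, reached it in cumulus cells alone. Socs3 was 45.1-fold higher in the mean of WT MGCs (71.6-fold without WT cumulus library 2) and Irf7 57.8-fold (27.9-fold without WT MGC library 3), with log2 differences of 3.21 (SE 0.260, limma adjusted p = 1.56e-05) and 2.99 (SE 0.478, limma adjusted p = 6.94e-04). Isg15, with 167, 160 and 427 reads in WT MGCs and 1, 0 and 1 in WT cumulus cells, and Stat2, with a mean of 6.64 FPKM (4.20 FPKM without WT MGC library 3) against 0.328 FPKM, were likewise higher in MGCs. Ifngr1 lay the other way, with a mean of 11.5 FPKM in MGCs and 26.5 FPKM in cumulus cells (log2 difference −1.14, SE 0.120, limma adjusted p = 6.81e-05), as did Ifi35 (log2 difference −1.67, SE 0.306, limma adjusted p = 0.00143). The type I chain Ifnar1 was higher in MGCs by 2.13 (SE 0.124, limma adjusted p = 3.02e-06). The cumulus libraries therefore held more transcript of the binding chain of the gamma receptor and the MGC libraries more of the type I chain Ifnar1. This split held with medians set equal (−1.70 for Ifngr1 and 1.57 for Ifnar1). Sums of markers of other cells were also higher in WT MGC than in WT cumulus libraries, as was the granulosa sum. Among the granulosa markers Fshr was lower in every WT MGC library, at 54.7, 55.1 and 69.5 FPKM against 94.0, 103.7 and 118 FPKM. Inhba overlapped between the cell types. Neutrophil markers summed to 134 to 203 against 2.94 to 19.3 FPKM, endothelium to 10.0 to 13.0 against 0.204 to 0.505 FPKM, and theca and stroma to 105 to 234 against 10.9 to 34.9 FPKM. Oocyte markers summed to 25.0 to 63.7 against 1.43 to 3.67 FPKM. The part of such cells in these levels was not tested. Between Sphk1/2gc−/− cells of the 2 types no test was made, and in the values by library Igtp was higher in MGC libraries 1 and 2 than in any cumulus library, whereas the Gbp7 and Tgtp1 values of MGC libraries 1 and 2 lay near those of cumulus cells.

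**Figure D5:**
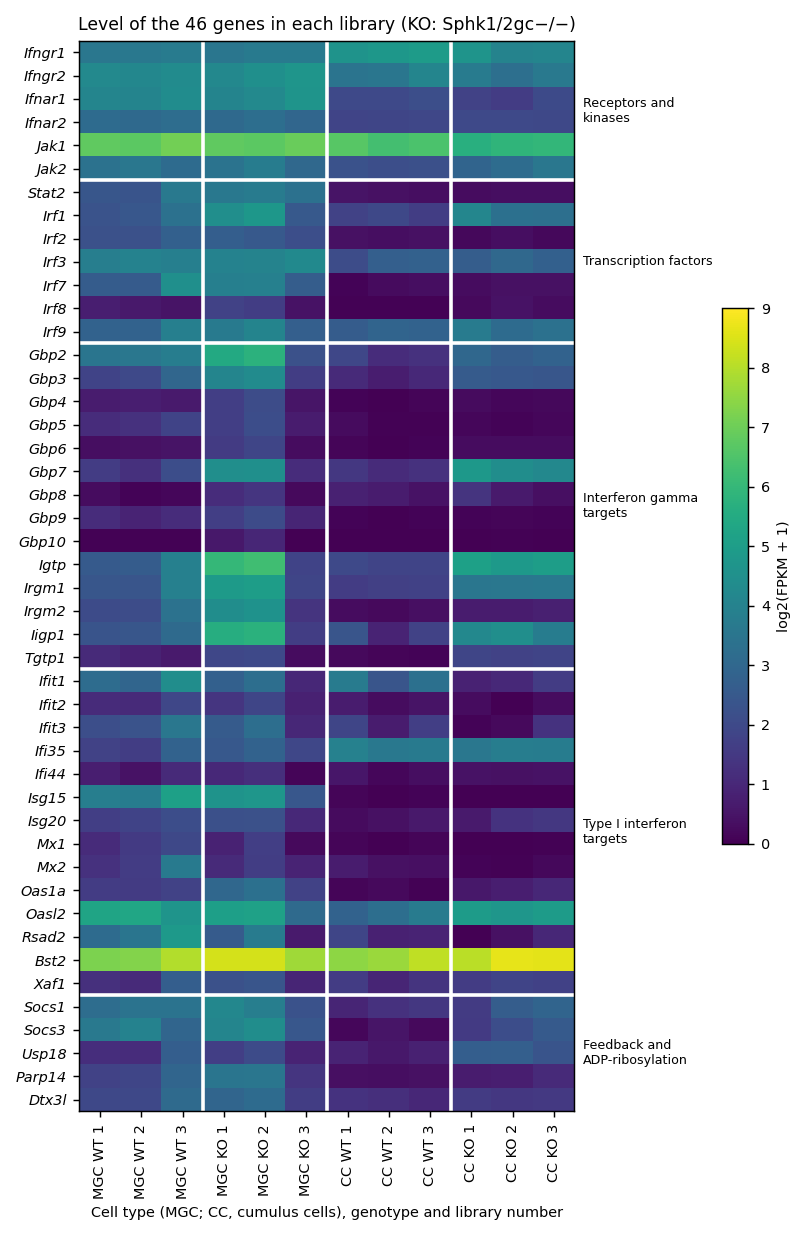
Level of the 46 interferon genes as log2(FPKM + 1), with genes grouped by role in lines and the 12 libraries in columns (CC, cumulus cells; KO, Sphk1/2gc−/−). Bst2 and Jak1 are bright in every library, Isg15, Irf7 and Stat2 are dark in all cumulus libraries, and most interferon gamma targets are brightest in Sphk1/2gc−/− MGC libraries 1 and 2.

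Other genes of the pathway came from a list of 74, of which 70 are in both tables. In cumulus cells 39 were fitted, 12 were higher and 1 lower in Sphk1/2gc−/− mice at an adjusted p of 0.05 or less, beside 9.66% and 12.7% of all genes. Without WT library 2 the counts were 7 and 2, and without library 3 of both genotypes 5 and 0. Shares of all genes in these last settings are not given here, so these counts cannot be set against them. The largest differences were in Tgtp2, at 1.80, 1.00 and 0.911 FPKM in WT against 33.1, 26.8 and 19.6 FPKM in Sphk1/2gc−/− libraries (log2 difference 3.61, SE 0.230), and in Ifi47, a further Irg GTPase, at 8.51, 5.31 and 4.93 FPKM against 43.2, 39.3 and 31.2 FPKM (log2 difference 2.44, SE 0.219). Ifitm1 (log2 difference 1.97), Gm4951 (1.84) and Nlrc5, which activates genes of MHC class I (1.36), followed. Gm4951 reached the limit of the fit in Sphk1/2gc−/− cumulus cells alone. In MGCs 61 were fitted and 0 passed with limma, and before adjustment 7 were higher and 0 lower at 0.05, with no share of all genes to set beside that count. Without Sphk1/2gc−/− library 3, 12 were higher and 0 lower after adjustment, and without library 3 of both genotypes 33 and 0. Nlrc5 was the one with the largest difference, at 0.821, 0.786 and 1.10 FPKM in WT against 20.9, 21.7 and 3.11 FPKM in Sphk1/2gc−/− MGCs (log2 difference 2.74, SE 0.637, limma adjusted p = 0.259), and even Sphk1/2gc−/− library 3 lay above every WT library. Between WT MGCs and WT cumulus cells 57 were fitted, 42 were higher in MGCs and 7 lower, beside 55.5% and 26.3% of all genes, and with medians set equal 26 were higher and 8 lower, beside 36.1% and 37.7%. The list was led by Lgals3bp (log2 difference 4.85, SE 0.225), Slfn2 (2.70), Adar (2.54) and Rnf213 (2.28), which were higher, and by Ifitm2 (−2.71, SE 0.110), which was lower, each past an adjusted p of 0.05 with limma under both scalings. Lgals3bp, Slfn2 and Adar reached the limit of the fit in MGCs alone.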

How the data were processed

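The authors deposited FPKM values in 1 table per cell type, with 29101 genes for MGCs and 33137 for cumulus cells. The submitters' processing notes name HISAT2 and GRCm38, and the counting tool is not given in the sources used here. Libraries were made with a NEBNext Ultra kit without strand marks, so reads of overlapping genes cannot be told apart. Symbols and exons came from GENCODE M21 (GRCm38), in which 76 of the listed genes have no entry. FPKM times exon length gave whole reads for 90.3% to 91.8% of values per library (tolerance 0.02 reads). Genotypes were compared with limma 3.58.1 in R 4.3.3 (intensity trend) on log2(FPKM + 1), leaving out genes whose mean stayed under 0.5 FPKM in both groups, adjusted by Benjamini-Hochberg over all genes tested, and the code was tested on simulated data. Log2 differences on this scale understate changes at low levels. A test for read counts had been planned in case the tables held counts and was not used. Alternatives covered the pseudocount, the filter, scaling, a replicate block, single libraries left out and voom on recovered reads.

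After removal of the genotype means, equally numbered MGC libraries correlated at 0.220, 0.158 and 0.224, which is a sign of pairing from the data and not from a stated animal. All printed values come from the fits without the replicate block, which was an alternative. In cumulus cells the values were −0.148, −0.0511 and 0.115. Values by library are printed for members that average 2 FPKM or more in a group or a fold of at least 2 between genotypes, and of the wider pathway list the 5 largest differences at an adjusted p of 0.05 or less are named per comparison. The members and lists were chosen with earlier results of these data known.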

Additional observations from a re-analysis of the deposited data

How the results depend on the processing

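In cumulus cells the number of members higher in Sphk1/2gc−/− mice ranged from 12 to 17 with single libraries left out (15 with all) and was 10 without library 3 of both genotypes, and the number lower ranged from 1 to 3. The number lower was 1, not 2, without the filter on low values, with the replicate block and without library 3 of both genotypes, since Jak1 then missed the threshold. Shares of all genes are not given for these cumulus settings. A change in the members therefore cannot be told from a change in the whole fit. In MGCs the number higher ranged from 0 to 10 with single libraries left out, where the 10 came without Sphk1/2gc−/− library 3, and it was 26 without library 3 of both genotypes. In that last setting Isg15 turned from −0.31 to 0.87 (limma adjusted p = 0.00688) and Isg20 from −0.04 to 0.48 (limma adjusted p = 0.0437), and their lowest values with a library left out were −0.71 and −0.25, without Sphk1/2gc−/− library 2. Without the filter, Irf9, Oas1a and Socs1 also missed the threshold in cumulus cells, and Irf9 and Oas1a did so with the replicate block. With the replicate number as a block, MGCs still gave 0 calls, cumulus cells 15 higher and WT MGCs against WT cumulus cells 35 higher and 3 lower. That last comparison gave 20 higher with median scaling, where Jak1 turned to −0.17 (limma adjusted p = 0.380), 21 higher with quantile normalization, and 28 to 36 higher and 2 to 3 lower with single libraries left out. Of the other pathway genes, those higher in Sphk1/2gc−/− cumulus cells fell from 12 to 7 without the filter, and those higher in WT MGCs than in WT cumulus cells from 42 to 26 with median scaling and 24 with quantile normalization. Stricter motifs, TTCCNGGAA for GAS and GAAA, any 2 bases and GAAACT for ISRE, were found in 6 and 9 of the 36 members with a promoter window. Those are 16.7% and 25.0% of the members, beside 1.35% and 0.303% of all genes with a window. The cause of these changes was not tested. The use of voom and of libraries 1 and 2 alone was chosen after seeing the data, and 2 planned count models were not run because the tables hold FPKM. With 3 libraries per group, differences smaller than the spread between libraries could not be detected, and levels under 3 reads were at the limit of detection.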
